A study of Mus musculus with 12 samples.

Results

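The 36 transcripts described here mark B cells (31 genes) and antibody-secreting plasma cells (5 genes: Jchain, Mzb1, Prdm1, Irf4 and Sdc1). They were taken by symbol from a list of lineage markers, and all 36 were present among the 16805 genes of the neutrophil table and the 16954 genes of the monocyte table. The study profiled bulk RNA from spleen cells of wild-type (WT) mice around cryo-thermal therapy (CTT), an ablation of tumours by freezing followed by heating. The 12 libraries formed 4 groups of 3, labelled as biological replicates. Neutrophils had been captured with PE-coupled anti-Ly6G from tumour-bearing mice without therapy (control) and from mice 12 h after CTT. Monocytes had been captured with PE-coupled anti-CCR2 from mice 5 days after CTT, either alone or with anti-Ly6G treatment, so both monocyte groups had received CTT and there was no untreated monocyte group. The sources used here do not give the tumour model, the age or sex of the mice, or the number of mice behind a library. Where replicates do not come from separate mice, the p-values measure only the spread between these libraries.

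B cells recognise antigen through a surface immunoglobulin whose signals pass through the Cd79a and Cd79b chains to kinases such as Blk and Btk and adaptors such as Blnk. Coreceptors raise or dampen that signal, Pax5 and Ebf1 hold the lineage identity, and Cxcr5 guides the cells into splenic follicles, where the cytokine BAFF keeps them alive. During plasma cell differentiation, Irf4 and Prdm1 shut the B cell programme down, and the cell turns to secreting antibody, joined into polymers by the J chain. The spleen is rich in B cells, and neither Ly6G nor CCR2 was chosen in these captures to collect them.

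Several B lineage promoters are known to hold the octamer, bound by Pou2f1 and Pou2f2 with the coactivator Pou2af1, itself one of the 36 members. The RefSeq promoter table of assembly GRCm38.p6 (windows of 250 bases before and 50 bases after a listed start) held 29 of the 36 members, in 35 windows. The octamer ATTTGCAT, searched on both strands (reverse complement ATGCAAAT), stood in 3 of those 29 genes, against 1.74% of all 32851 windows. The 3 genes were Vpreb3 (chr10:75948050-75948299, plus strand, the octamer starting 45 bases before the listed start), Ccr6 (chr17:8235793-8236042, plus strand, 68 bases before) and Blnk (chr19:40994222-40994471, minus strand, 130 bases before). They are shown because all 3 were also among the 7 members that fell in the monocyte comparison. That coincidence was not tested, and a match to letters is not evidence of binding. Of the 6 fits that leave out 1 library, the calls of Blnk and Ccr6 were lost in 4 and that of Vpreb3 in 5. The 250 bases before each start are given 5′ to 3′ on the gene's strand, with the octamer in capitals.
Vpreb3: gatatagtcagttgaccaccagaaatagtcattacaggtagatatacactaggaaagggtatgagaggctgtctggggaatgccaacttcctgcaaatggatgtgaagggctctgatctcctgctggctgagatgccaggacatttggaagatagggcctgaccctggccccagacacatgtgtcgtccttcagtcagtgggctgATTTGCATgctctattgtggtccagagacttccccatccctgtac
Ccr6: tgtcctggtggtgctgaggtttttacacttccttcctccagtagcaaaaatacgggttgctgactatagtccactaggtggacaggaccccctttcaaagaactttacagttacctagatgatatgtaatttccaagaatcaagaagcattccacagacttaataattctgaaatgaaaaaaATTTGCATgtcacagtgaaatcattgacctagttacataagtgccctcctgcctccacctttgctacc
Blnk: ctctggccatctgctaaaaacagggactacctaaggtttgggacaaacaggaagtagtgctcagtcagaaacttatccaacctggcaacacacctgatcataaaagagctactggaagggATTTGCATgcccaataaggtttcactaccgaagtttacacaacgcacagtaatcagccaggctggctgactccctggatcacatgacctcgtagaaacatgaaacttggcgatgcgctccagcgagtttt
An EBF-type core, CCCNNGGGA (reverse complement TCCCNNGGG), stood in Cd55, Cd22 and Sdc1, 3 of the 29 genes, against 6.56% of all windows. In Cd22 a match on each strand overlapped the other by all but 1 base. In both searches the members were counted by gene but the background by window. A gene with more than 1 window has more chances of a match, so the 2 are not on the same unit.

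B cell transcripts were abundant in all 12 libraries, although the cells had been captured as neutrophils or monocytes. On the length-normalised scale of the deposited FPKM, Cd79a (GRCm38.p6, chr7:24897497-24901858), the signalling chain of the antigen receptor, averaged 1158 ± 455 in neutrophil controls and 1230 ± 107 after CTT (SD, n = 3). In monocytes its FPKM was 642 ± 134 after CTT and 463 ± 66.4 with anti-Ly6G. The FPKM of Cd79a was above that of 99.7% of genes in neutrophil controls. For the labelled cell types, Ly6g itself had an FPKM of 12.9 ± 3.08 in neutrophil controls and Ccr2 one of 46.1 ± 8.25 in monocytes after CTT, while the neutrophil calprotectin subunit S100a8 reached 1683 ± 429 and 2465 ± 397 in those groups. The T cell receptor chain Cd3e stood at 9.67 ± 2.58 FPKM in neutrophil controls and 1.22 ± 0.141 FPKM in monocytes after CTT.

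The order of the members differed between the captures. In both neutrophil groups the highest FPKM values belonged to Cd79a, then the surface protein Ly6d (673 ± 282 in controls), then Cd79b (620 ± 260 in controls). In both monocyte groups the first place went to Jchain, the chain that joins IgA and IgM units (chr5:88519809-88527897), with an FPKM of 1332 ± 665 after CTT and 1104 ± 499 with anti-Ly6G, ahead of Cd79a and Cd79b. In each of these groups the lowest Jchain library (907 and 798 FPKM) was above the highest Cd79a library (745 and 531 FPKM). Ly6d was above Cd79b in each neutrophil control (351, 793 and 876 against 323, 733 and 805 FPKM), while CTT replicate 1 had the reverse order (638 against 666 FPKM). The lowest members were transcription factor genes and Sdc1: Ebf1 averaged 2.52 ± 0.530 FPKM and Prdm1 3.52 ± 0.747 FPKM in monocytes after CTT. The 2 tables were deposited separately, so levels between neutrophils and monocytes are given side by side without a test.

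Depth was 30942849 to 34935547 counts per neutrophil library and 31865982 to 35956571 per monocyte library, which leaves counting error small beside the spread between libraries for members with high counts. Vpreb3 had only 400 to 458 counts in the monocyte libraries with anti-Ly6G, where the 2 errors are of like size. One library stood apart: neutrophil control replicate 1 had the lowest level of 30 of the 31 B cell members and of 4 of the 5 plasma cell members. Its summed erythroid markers came to 15897 CPM (library-size-normalised counts, scaled by the trimmed mean of M values), against 2663 and 869 in the other controls and 402 to 1049 after CTT. The cell cycle list summed to 6999 CPM in it, against 1362 to 1979 in the other 5 neutrophil libraries. Neutrophil log2 fold changes are therefore also given without that library for the members described. It was set apart partly by its low levels of these same members. Values and adjusted p without it are thus not independent of that choice.

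Summed over the 31 B cell members, neutrophil controls had 8171, 13986 and 15464 CPM and CTT libraries had 12894, 13642 and 13013 CPM. Cd24a (heat stable antigen, also carried by red cell precursors) ran against the rest in control replicate 1. The sum of the other 30 genes, an alternative chosen after seeing the data, was 6019, 12977 and 14585 CPM in controls and 12022, 12708 and 12102 CPM after CTT, so the CTT libraries lay inside the range of the controls. In monocytes the sum of 31 members was 7363, 10429 and 10090 CPM after CTT and 6115, 7088 and 7833 CPM with anti-Ly6G. CTT replicate 1 of the monocytes lay within the range of the anti-Ly6G libraries, and the other 2 CTT libraries lay above it. In these bulk libraries, fewer B cells and less RNA of these genes per cell cannot be told apart.

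**Figure D1:**
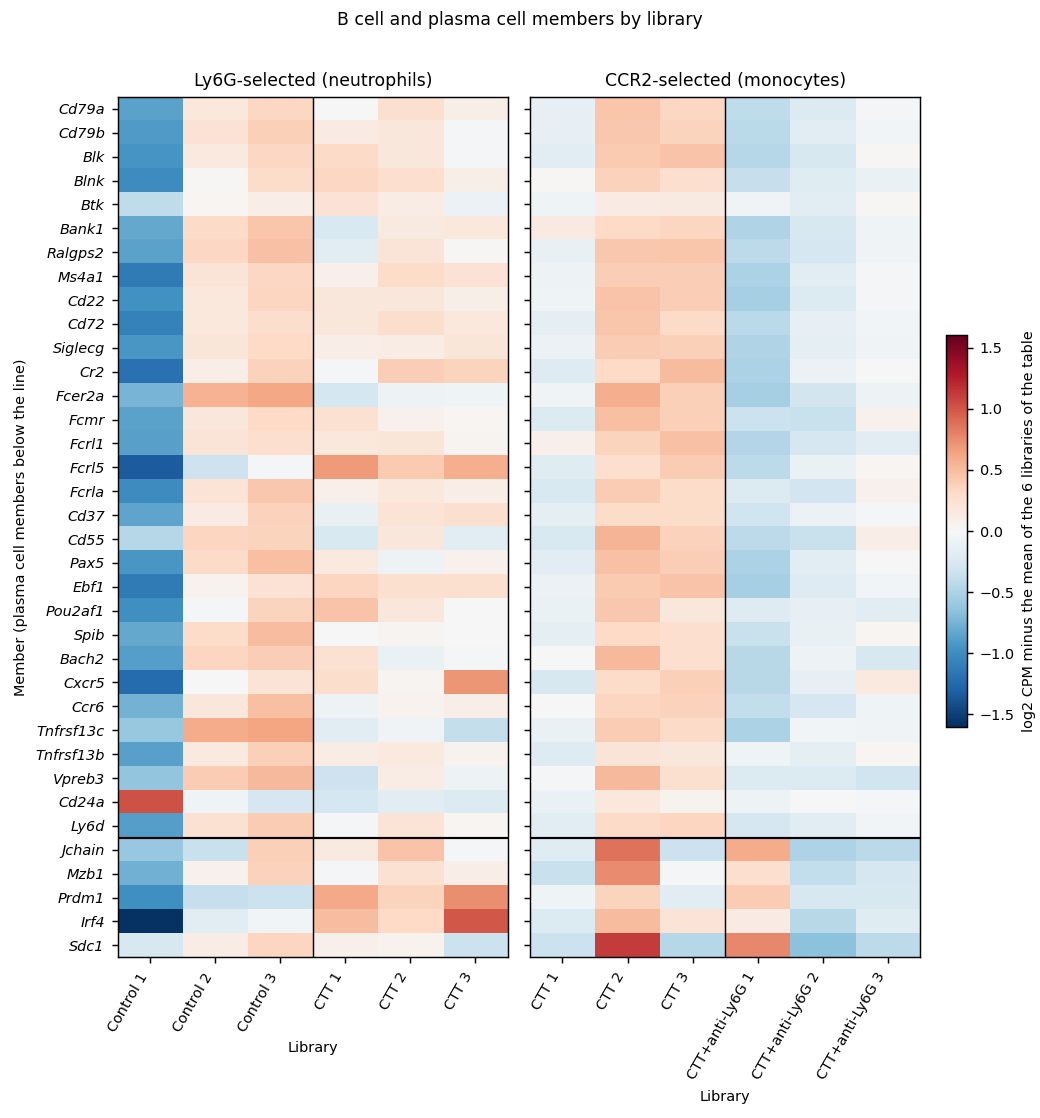
Heat map of the 36 members (rows, plasma cell members below the line) in the 6 libraries of each table (columns), as log2 CPM minus the mean of that table's 6 libraries. Neutrophil control replicate 1 is low in nearly every row except Cd24a, and in monocytes the plasma cell members are high in CTT replicate 2 and anti-Ly6G replicate 1, whereas most B cell members are high in CTT replicate 2 and low in anti-Ly6G replicate 1.

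**Figure D2:**
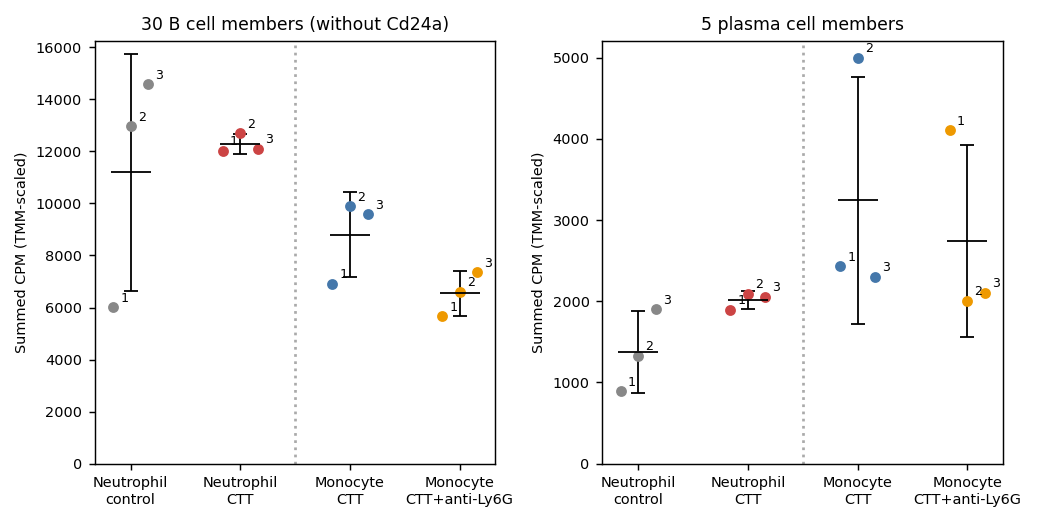
Summed CPM of 30 B cell members (left, without Cd24a) and 5 plasma cell members (right) in each library, numbered by replicate, with the mean and SD of each group of 3. The 2 tables were scaled separately (dotted line), and the control bar of the neutrophils is wide because replicate 1 stands at 6019 CPM.

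The comparison of neutrophils 12 h after CTT with controls asks whether therapy alters the transcripts of the captured cells early on. Across all 13058 genes tested, 74 rose (0.567%) and 0 fell (0%) by edgeR's quasi-likelihood test at an adjusted p of 0.05. An unadjusted p under 0.05 was reached by 1081 genes in the positive and 749 in the negative direction, and DESeq2 called 456 up (3.49%) and 107 down. None of the 31 B cell members was called in edgeR. The median log2 fold change of the members was 0.15, against -0.02 over all genes, with 20 positive and 11 negative values between -0.57 and 1.03. One member, Fcrl5, had an unadjusted p under 0.05, and DESeq2 called 1 member, the same gene.

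The antigen receptor and its signalling chain showed no change past the test. Cd79a was at 637, 1305 and 1458 CPM in controls and 1166, 1375 and 1231 CPM after CTT. All 3 CTT libraries fell between the lowest and the highest control. Cd79b, its partner, was at 396, 873 and 969 CPM against 816, 845 and 728 CPM and overlapped in the same way. The 7 members of this role (Cd79a, Cd79b, the kinases Blk and Btk, the adaptors Blnk and Bank1, and Ralgps2, an exchange factor for Ral GTPases) had log2 fold changes from -0.07 to 0.37, with adjusted p between 0.564 and 0.955. Without control replicate 1 their values ran from -0.37 to 0.08, with -0.13 for Cd79a and -0.20 for Cd79b, and 0 were called.

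Among the 12 surface coreceptors and inhibitory receptors, Fcrl5, an Fc receptor-like protein linked to marginal zone B cells (chr3:87435777-87500678), had the largest difference. Its level was 34.6, 69.4 and 86.1 CPM in controls and 140, 117 and 131 CPM after CTT. All CTT libraries were above all controls. The log2 fold change was 1.03 (SE 0.309) with an adjusted p of 0.265. Without control replicate 1 it was 0.74 with an adjusted p of 0.0224, and DESeq2 on all libraries gave 0.0419. Fcer2a, the low-affinity IgE receptor CD23 of follicular B cells (chr8:3680280-3694174), was at 217, 531 and 554 CPM in controls and 298, 343 and 344 CPM after CTT. The CTT values lay above control replicate 1 and below the other 2 controls. Its log2 fold change was -0.40 (SE 0.331, adjusted p 0.561), and without control replicate 1 it was -0.72 with an adjusted p of 0.0119. The complement receptor Cr2 (250, 613 and 737 CPM against 564, 751 and 730 CPM) and the CD20 gene Ms4a1 (348, 880 and 961 CPM against 806, 932 and 895 CPM) overlapped between the groups. Without control replicate 1 their log2 fold changes were 0.02 and -0.06.

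Of the 5 lineage transcription factors, Ebf1 was at 82.9, 189 and 214 CPM in controls and 231, 217 and 218 CPM after CTT, which gave 0.46 on the log2 scale (SE 0.320, adjusted p 0.496). It was 0.15 without control replicate 1, with an adjusted p of 0.468. The groups did not overlap, but the highest control and the lowest CTT library differed by only a few CPM. Pax5, which represses genes of other lineages, was at 326, 767 and 863 CPM against 693, 587 and 649 CPM. Bach2, a repressor of Prdm1, had a log2 fold change of -0.01. Pax5 was at -0.34 and Bach2 at -0.32 on the log2 scale without control replicate 1. Among all genes tested, the CTT libraries were all above the controls for 13.6% and all below for 11%. Of the 31 B cell members, 2 (Fcrl5 and Ebf1) were above and 0 below.

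The receptors for homing and survival signals did not move together. Tnfrsf13c, the BAFF receptor (chr15:82221742-82224380), was at 65.3, 150 and 154 CPM in controls and 88.4, 95.6 and 76.5 CPM after CTT. As for Fcer2a, the CTT values lay between control replicate 1 and the other 2 controls. The log2 fold change was -0.50 (SE 0.312, adjusted p 0.455), and without control replicate 1 it was -0.80 with an adjusted p of 0.0106. Cxcr5, the receptor for the follicular chemokine Cxcl13, was at 80.2, 188 and 219 CPM against 229, 194 and 308 CPM, which gave 0.59 on the log2 scale (SE 0.365, adjusted p 0.456). It was 0.27 without control replicate 1, with an adjusted p of 0.536. Tnfrsf13b, the receptor TACI, and Ccr6 had log2 fold changes of 0.12 and -0.03, and -0.16 and -0.31 without control replicate 1. Of the stage-linked proteins, Cd24a was at 2152, 1009 and 879 CPM against 872, 935 and 911 CPM, a log2 fold change of -0.57 (adjusted p 0.424) that became -0.05 without control replicate 1.

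Without control replicate 1, edgeR called 257 of 13295 genes as risen (1.93%) and 31 as fallen (0.233%). Among the B cell members, Fcrl5 rose and Fcer2a and Tnfrsf13c fell. The median log2 fold change of the 31 members was then -0.13. Leaving out any other single neutrophil library gave 0 edgeR calls over all genes, and so 0 members.

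Because control replicate 1 was low in almost every B cell member, each gene was also expressed as a share of the sum of the 30 members in its library. Over the 6 neutrophil libraries the median ratio of highest to lowest value was 2.45 for CPM and 1.28 for shares. The share of Fcrl5 was 0.574%, 0.535% and 0.590% in controls and 1.16%, 0.922% and 1.08% after CTT. For this gene control replicate 1 was no longer apart. In some other genes it still was, as in Btk (2.28%, 1.43% and 1.34% in controls) and Cd55 (4.30%, 3.48% and 3.13%). Cxcr5 held 1.43% ± 0.0859 (SD, n = 3) in controls and 1.99% ± 0.512 after CTT, highest in CTT replicate 3. Ebf1 went from 1.38%, 1.46% and 1.47% to 1.92%, 1.71% and 1.80%. Fcrl5, Cxcr5 and Ebf1 had the largest ratios of mean shares, at 1.86, 1.40 and 1.26. The smallest ratios belonged to Tnfrsf13c (0.644), Fcer2a (0.698) and Vpreb3 (0.748), a chaperone-like protein of immunoglobulin assembly. The share of Tnfrsf13c was 1.08%, 1.15% and 1.05% in controls and 0.736%, 0.752% and 0.632% after CTT. The share of Fcer2a was 3.599%, 4.09% and 3.80% in controls and 2.48%, 2.70% and 2.84% after CTT. Of the 30 shares, 6 had all CTT libraries above the controls, 6 had all of them below, and 18 overlapped. No such count was made over all genes on the scale of shares, so these numbers have no background. The 13.6% and 11% of all genes given above are for CPM and do not serve as one. The shares are a description with no test, and they depend on each other because they share a denominator.

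**Figure D3:**
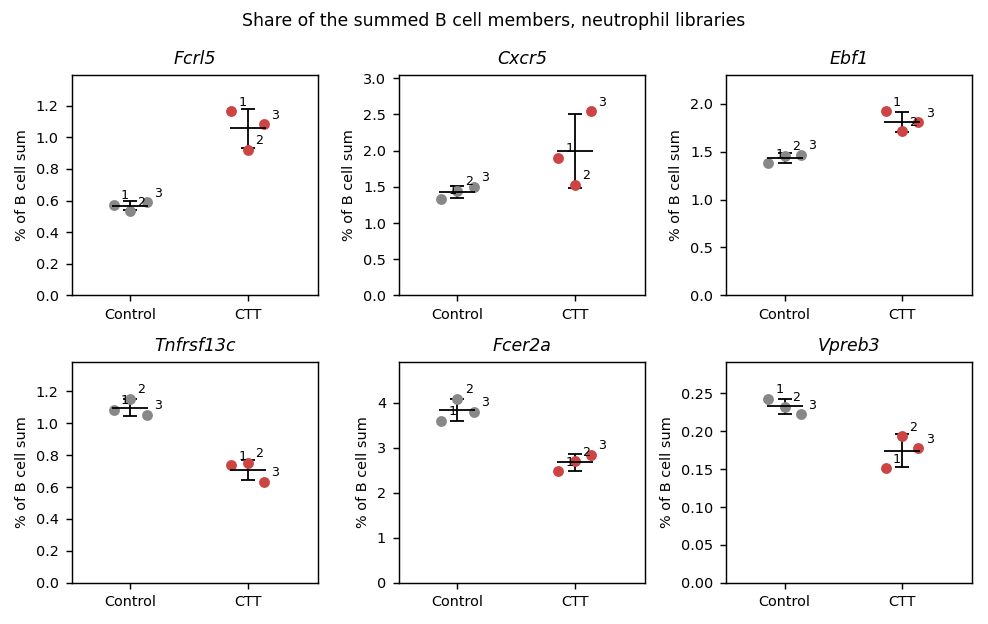
Share of the summed 30 B cell members (%, y axis from 0) held by the 3 genes with the largest and the 3 with the smallest ratio of mean shares, in the control and CTT neutrophil libraries (points numbered by replicate, bars mean and SD of 3). Fcrl5 moves from a mean of 0.566% to 1.06% and Fcer2a from 3.83% to 2.67%, with no overlap between the groups. Over all 30 shares, 6 were higher and 6 lower without overlap, with no count over all genes on this scale to set beside them.

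None of the 5 plasma cell members was called in the neutrophil comparison by edgeR, and DESeq2 called 1, Prdm1. An unadjusted p under 0.05 was reached by 2, Prdm1 and Irf4. Prdm1, the repressor Blimp-1 (chr10:44437174-44528558), was at 13.2, 20.3 and 20.5 CPM in controls and 39.6, 33.4 and 43.6 CPM after CTT. All CTT libraries were above all controls, with a log2 fold change of 1.11 (SE 0.213) and an adjusted p of 0.0991. It was 0.94 without control replicate 1, with an adjusted p of 0.0167, and the adjusted p in DESeq2 on all libraries was 0.000347. Irf4, a factor of activated B cells and plasma cells that other leukocytes also use, was at 154, 406 and 449 CPM against 651, 576 and 917 CPM. Its groups did not overlap either, and its log2 fold change of 1.09 (SE 0.395) had an adjusted p of 0.338. The value was 0.75 without control replicate 1, with an adjusted p of 0.0984.

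The secretory and surface members did not follow Prdm1 and Irf4. Jchain was at 639, 760 and 1264 CPM in controls and 1070, 1330 and 955 CPM after CTT. Mzb1, an endoplasmic reticulum cochaperone of antibody assembly, was at 66.8, 119 and 146 CPM against 112, 134 and 123 CPM. Sdc1, the plasma cell surface proteoglycan CD138, was at 17.1, 22.3 and 26.0 CPM against 21.7, 21.2 and 16.2 CPM, a log2 fold change of -0.14. The groups overlapped for all 3. Without control replicate 1 the log2 fold changes were 0.15 for Jchain, -0.10 for Mzb1 and -0.29 for Sdc1, and 0 of these 3 were called. Against the 13.6% of all genes given above, 2 of 5 plasma cell members had all CTT libraries above the controls.

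**Figure D4:**
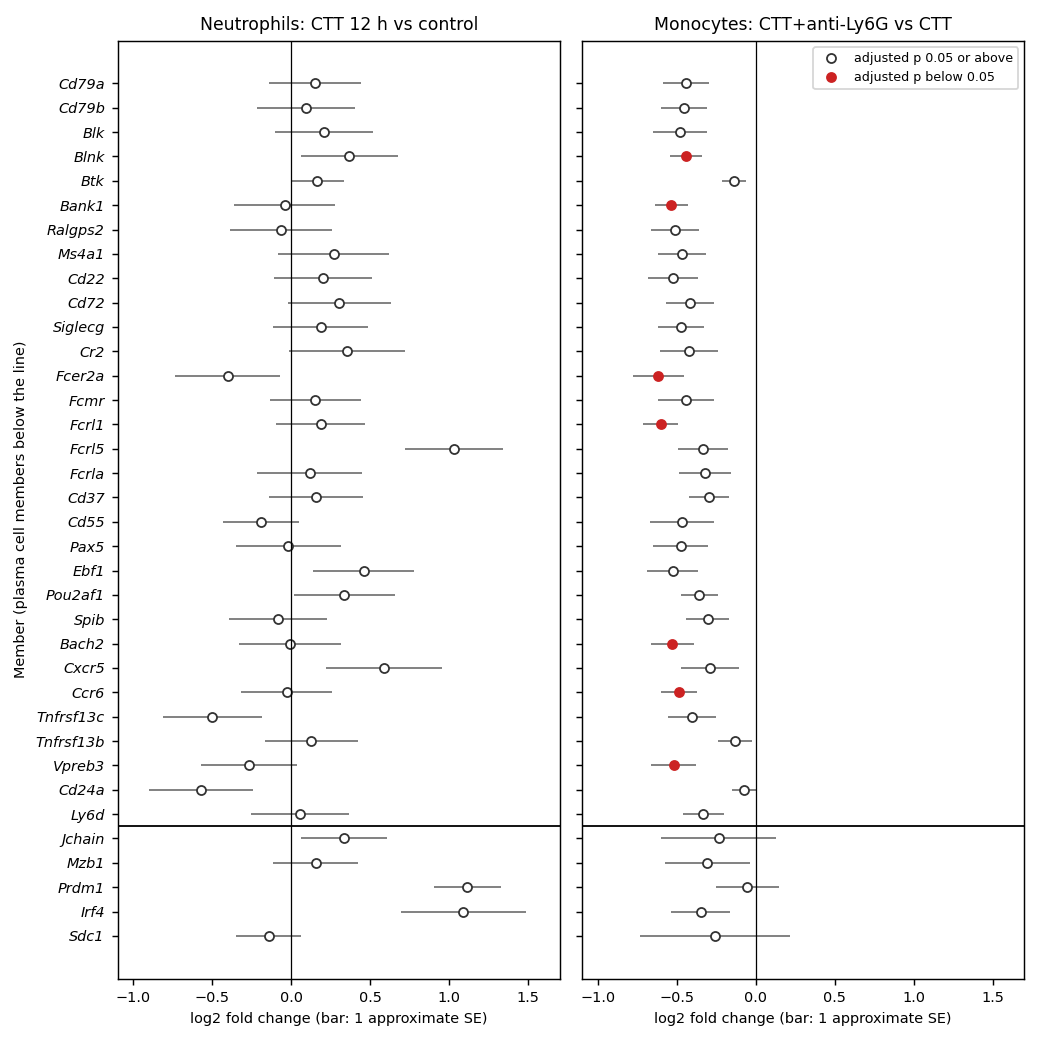
Log2 fold change with 1 approximate SE for each member in the neutrophil comparison (left, CTT against control) and the monocyte comparison (right, CTT with anti-Ly6G against CTT alone), filled where the edgeR adjusted p is below 0.05. On the left no point is filled and values run from -0.57 to 1.11, and on the right all 36 values are negative and 7 are filled.

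The monocyte comparison asks how transcripts in CCR2-captured cells 5 days after CTT differ where the mice also received anti-Ly6G, which is commonly given to remove neutrophils. All 31 B cell members were lower in the libraries labelled anti-Ly6G, with log2 fold changes from -0.62 to -0.08 and a median of -0.44, against a median of -0.00 over all genes. Of these, 7 fell (Fcrl1, Bank1, Blnk, Ccr6, Bach2, Fcer2a and Vpreb3), 0 rose and 24 did not pass the test. An unadjusted edgeR p under 0.05 was reached by 25 of the 31, all negative. Among all genes it was reached by 1786 in the negative and 2332 in the positive direction. Over all 13294 genes, 681 fell (5.12%) and 1354 rose (10.2%), and with upper quartile scaling 1030 fell and 1069 rose. All anti-Ly6G libraries were below all CTT libraries for 8 of the 31 members, and for 15.4% of all genes, with 20.6% above. Ly6g itself was at 16.1, 11.7 and 13.1 CPM after CTT and 62.7, 57.1 and 48.5 CPM in the libraries labelled anti-Ly6G, a rise of 2.04 (SE 0.136, adjusted p 0.000106). The Ly6g transcript was thus higher, not lower, in the libraries with that label, and each direction given here rests on the label.

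In the antigen receptor group, Bank1, a scaffold that links the receptor to its kinases (chr3:136053363-136326141), was at 301, 341 and 346 CPM after CTT and 194, 228 and 259 CPM with anti-Ly6G. It fell by 0.54 on the log2 scale (SE 0.105, adjusted p 0.0110). Blnk was at 179, 228 and 214 CPM against 137, 155 and 165 CPM and fell by 0.44 (SE 0.101, adjusted p 0.0216). In both genes the groups did not overlap. Cd79a was at 493, 734 and 681 CPM against 407, 464 and 534 CPM, where CTT replicate 1 lay below the highest anti-Ly6G library. Its log2 fold change of -0.44 (SE 0.148) was the same size as that of Blnk, with a wider spread and an adjusted p of 0.0781. Btk, which myeloid cells also use, was at 145, 166 and 168 CPM against 145, 136 and 154 CPM, a log2 fold change of -0.14.

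Among the surface receptors, Fcrl1 (chr3:87376353-87403967), a positive modulator of B cell receptor signalling, was at 139, 169 and 183 CPM after CTT and 95.7, 110 and 118 CPM with anti-Ly6G. It fell by 0.60 (SE 0.110, adjusted p 0.00810), and its groups did not overlap. Fcer2a was at 153, 239 and 208 CPM against 110, 130 and 151 CPM and fell by 0.62 (SE 0.162, adjusted p 0.0360). The lowest CTT library and the highest anti-Ly6G library were close together in this gene. The other 10 members of this role were not called. They included the inhibitory receptor Cd22 (577, 830 and 795 CPM against 417, 518 and 596 CPM, adjusted p 0.0551) and Ms4a1 (562, 784 and 780 CPM against 418, 532 and 586 CPM, adjusted p 0.0695). Fcrl5, highest after CTT in the neutrophil comparison, was at 49.2, 67.8 and 74.4 CPM against 41.9, 52.3 and 57.5 CPM here.

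Of the transcription factors, Bach2 was at 107, 154 and 130 CPM after CTT and 79.1, 102 and 90.2 CPM with anti-Ly6G and fell by 0.53 (SE 0.135, adjusted p 0.0323). Pou2af1, the octamer coactivator, was at 416, 603 and 507 CPM against 389, 408 and 395 CPM. Its groups did not overlap, and its log2 fold change of -0.36 had an adjusted p of 0.0721. Pax5, Ebf1 and Spib overlapped between the groups, with adjusted p from 0.0574 to 0.159.

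Ccr6, the receptor for the chemokine Ccl20, was at 73.7, 93.4 and 95.0 CPM against 56.0, 61.1 and 70.2 CPM and fell by 0.49 (SE 0.114, adjusted p 0.0238). Vpreb3 was at 14.8, 21.5 and 17.8 CPM against 12.9, 12.9 and 12.0 CPM and fell by 0.52 (SE 0.141, adjusted p 0.0393). Neither gene's groups overlapped. The smallest log2 fold changes were those of Cd24a (-0.08), Tnfrsf13b (-0.13) and Btk. Tnfrsf13b was at 123, 164 and 161 CPM against 136, 128 and 145 CPM, and its share of the 30-gene sum was 1.78%, 1.66% and 1.68% after CTT and 2.40%, 1.94% and 1.97% with anti-Ly6G. The shares of Fcer2a and Fcrl1 had the smallest ratios of means, 0.878 and 0.880. Over the 6 monocyte libraries the median ratio of highest to lowest was 1.81 for the CPM of a member and 1.17 for its share.

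The number of B cell members called depended on single libraries. Without CTT replicate 1, whose B cell sum was the lowest of its group, 29 of the 31 fell, against 1168 of 13525 genes (8.64%) that fell and 1687 (12.5%) that rose. Without CTT replicate 2 or 3, 2 and 1 members fell, against 3.92% and 2.06% of all genes. Without anti-Ly6G replicate 1, 2 or 3, the counts were 2, 3 and 5, against 1.31%, 2.36% and 2.08% of all genes. Fcrl1 was called in all 6 of these fits, with adjusted p from 0.000417 to 0.0376. Bank1 was called in all but the fit without CTT replicate 3, where its adjusted p was 0.0505, whereas Vpreb3 was called only without CTT replicate 1. The calls of Blnk, Ccr6, Bach2 and Fcer2a were each lost in 4 of the 6 fits. DESeq2 on all libraries called 20 of the 31 as fallen, against 1204 of 13294 genes (9.06%).

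None of the 5 plasma cell members was called in the monocyte comparison by edgeR or DESeq2, and 0 had an unadjusted p under 0.05. All 5 log2 fold changes were negative, from -0.35 (Irf4) to -0.05 (Prdm1), with a median of -0.26 and adjusted p between 0.243 and 0.889. The libraries differed within groups instead. Jchain was at 2089, 4332 and 1877 CPM after CTT and 3598, 1695 and 1758 CPM with anti-Ly6G. CTT replicate 2 and anti-Ly6G replicate 1 were high, and the other 4 libraries lay between 1695 and 2089 CPM. Sdc1 showed the same 2 libraries high, at 30.03, 83.1 and 27.8 CPM against 65.3, 24.2 and 28.5 CPM. Mzb1 was at 153, 331 and 194 CPM against 237, 150 and 162 CPM, and Prdm1 at 31.2, 41.9 and 28.7 CPM against 43.3, 27.5 and 27.3 CPM, again highest in that pair of libraries. Irf4 was at 129, 214 and 176 CPM against 165, 111 and 132 CPM, with CTT replicate 3 above anti-Ly6G replicate 1.

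The B cell members did not share this division. CTT replicate 2 had the largest B cell sum (10429 CPM) and the highest level of 19 of the 31 members. CTT replicate 3 was close, at 10090 CPM, and had the highest level of 12. Anti-Ly6G replicate 1 had the lowest level of 25 of the 31 B cell members among the monocyte libraries, while its plasma cell sum of 4108 CPM was the second highest. The plasma cell sum divided by the 30-gene B cell sum was 0.352, 0.506 and 0.240 after CTT and 0.726, 0.304 and 0.286 with anti-Ly6G. In neutrophils the same ratio was 0.148, 0.102 and 0.131 in controls and 0.158, 0.165 and 0.170 after CTT. This ratio includes Irf4, which other leukocytes also use. The neutrophil plasma cell sums with Irf4 were 889, 1328 and 1906 CPM in controls and 1894, 2094 and 2055 CPM after CTT, and overlapped. Without Irf4 these sums also overlapped, at 736, 922 and 1457 CPM in controls and 1243, 1519 and 1137 CPM after CTT. The ratio itself was not computed without Irf4. Jchain made up 81.5% to 87.6% of the plasma cell sum in monocytes and 46.5% to 71.8% in neutrophils, where Irf4 took a larger part. Leaving out CTT replicate 2 moved the median plasma cell log2 fold change to 0.12, leaving out anti-Ly6G replicate 1 moved it to -0.54, and without CTT replicate 1 the value was -0.50 and 1 member, Irf4, fell (adjusted p 0.0260). Without anti-Ly6G replicate 2 or 3 it was -0.05 and -0.07, and without CTT replicate 3 it was -0.41.

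**Figure D5:**
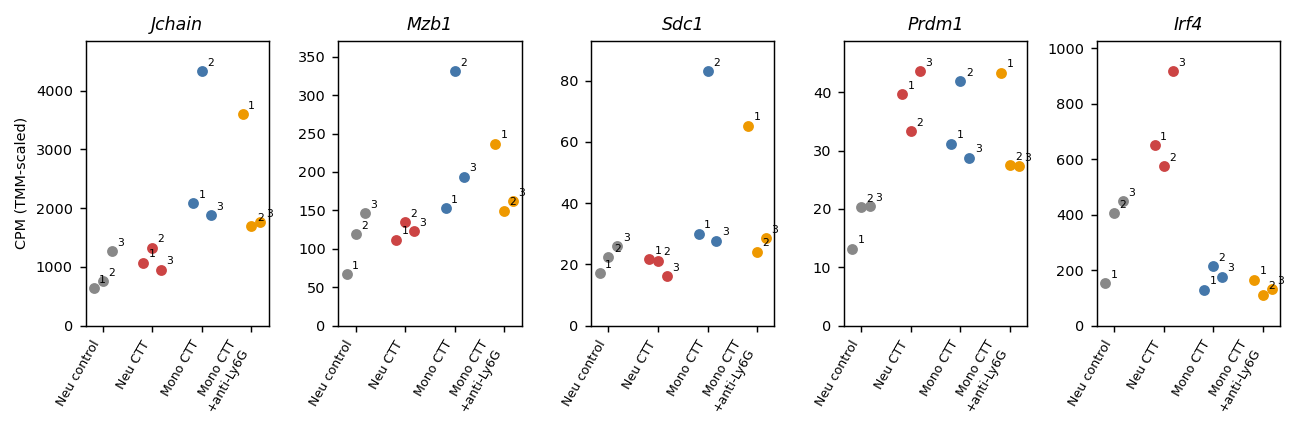
CPM of the 5 plasma cell members (panels, linear y axes from 0) in the 12 libraries, numbered by replicate; the neutrophil (Neu) and monocyte (Mono) tables were scaled separately. Jchain, Mzb1 and Sdc1 are highest in monocyte CTT replicate 2 and anti-Ly6G replicate 1, while Prdm1 and Irf4 are higher in the 3 CTT neutrophil libraries than in the 3 controls.

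Of 20 other genes of the secretory programme, 1 rose and 0 fell in monocytes, against 10.2% and 5.12% of all genes. The 1 that rose was the translocon subunit Sec61b (0.30, adjusted p 0.0371). The call of Sec61b was lost in 5 of the 6 fits that leave out 1 library. The summed level of the 20 genes was 3152, 4717 and 2974 CPM after CTT and 4604, 3046 and 3213 CPM with anti-Ly6G. The same pair of libraries was highest. Xbp1, the driver of the secretory apparatus, was at 279, 433 and 252 CPM against 483, 312 and 320 CPM. Tnfrsf17, the receptor BCMA of plasma cells, was at 4.34, 9.001 and 3.76 CPM against 10.3, 3.37 and 3.86 CPM. Neither passed the test (adjusted p 0.566 and 0.970). In neutrophils 0 of the 20 were called.

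Of 19 other genes of B cell receptor signalling, 4 fell and 0 rose in monocytes. Over all genes tested there, 5.12% fell and 10.2% rose. The tetraspanin gene Cd81 fell by 0.57 (adjusted p 0.00584), Vav2 by 0.48 (0.00446), Cd38 by 0.42 (0.00355) and Cd180 by 0.29 (0.0474). Leaving out 1 library at a time, Cd81, Vav2 and Cd38 were called in all 6 fits and Cd180 was lost in 4. Cd81 and Vav2 are used widely by other leukocytes. Of 11 further B lineage transcription factors, the octamer factor Pou2f2 fell by 0.27 (adjusted p 0.0409) and Spi1, shared with myeloid cells, rose by 0.57 (adjusted p 0.000501). Pou2f2 was called only without CTT replicate 1 and Spi1 in all 6 of those fits. In neutrophils 0 genes of either list were called.

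Genes linked to B cell stages were fewer in each list. In monocytes, 3 of 9 marginal zone genes fell (Asb2, Cd1d1 and the sphingosine-1-phosphate receptor S1pr3) and 1 rose (Cd9, 0.33). Of 9 germinal centre genes, 3 fell (Efnb1, Gcnt3 and Gcsam). Over all genes, 5.12% fell and 10.2% rose. Cd1d1, which presents lipid antigens, was at 107, 88.5 and 87.7 CPM against 51.8, 61.6 and 62.9 CPM and fell by 0.69 (SE 0.102, adjusted p 0.00316). With 1 library left out, Asb2, Cd1d1 and Efnb1 were called in all 6 fits, while S1pr3 and Cd9 were lost in 4 and Gcnt3 and Gcsam in 3. Of 6 tested precursor genes, Cd93 (0.85, adjusted p 0.0177) and Erg (1.03, adjusted p 0.0482) rose. Cd93 was lost without CTT replicate 3 or anti-Ly6G replicate 1, and Erg was called only without CTT replicate 1. The recombinase gene Rag1 was at 0, 0.555 and 0.263 CPM against 6.77, 0.506 and 0.659 CPM, high in the 1 library, anti-Ly6G replicate 1, and not called (adjusted p 0.0977). Among 9 tested survival and homing ligands, Cxcl13 rose by 0.95 (adjusted p 0.0499) from 2.03, 2.10 and 2.77 CPM to 3.55, 6.10 and 3.65 CPM, a call that each fit leaving out 1 library lost. The BAFF gene Tnfsf13b was at 2.97, 2.71 and 3.12 CPM against 4.10, 5.90 and 3.53 CPM (adjusted p 0.110). None of the stage or ligand genes was called in neutrophils, where 5 of 9 marginal zone genes, among them S1pr3 (0.77, adjusted p 0.373) and Cd9 (0.66, adjusted p 0.166), had all CTT libraries above the controls, against the 13.6% of all genes given above. One, Asb2 (-0.36, adjusted p 0.341), had all of them below, against 11%.

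Markers of other cells moved beside the B cell transcripts. Over all genes, 10.2% rose and 5.12% fell in monocytes, and 0.567% rose and 0% fell in neutrophils. In monocytes, 14 of 16 neutrophil markers rose, and their sum went from 7021, 5155 and 4999 CPM to 18828, 17332 and 13842 CPM. Of 11 monocyte markers 7 rose and 3 fell, with sums of 5854, 3696 and 3935 CPM against 5490, 4759 and 4757 CPM. Of 11 red pulp macrophage markers 8 fell, from 16478, 9918 and 11410 CPM to 8554, 8613 and 7886 CPM, highest in CTT replicate 1, where the B cell members were lowest in that group. Of 14 T cell markers 5 rose and 1 fell, at sums of only 136 to 167 CPM, and 12 of 20 cell cycle genes rose. Of 16 erythroid markers 3 fell, and of 7 platelet markers 1 rose. None of 9 plasmacytoid dendritic cell, 10 conventional dendritic cell or 9 NK cell markers was called. In neutrophils, 4 of 16 neutrophil markers rose, from 4276, 6261 and 4627 CPM to 8245, 8563 and 13393 CPM, as did 1 of 11 monocyte markers (Vcan, 1.78, adjusted p 0.0467), and 0 genes of the other lists were called there. These 5 neutrophil-table calls were kept without control replicate 1 and lost in each of the other 5 fits that leave out 1 library. In monocytes, every T cell call but Cd4, every erythroid and platelet call, and every red pulp macrophage call but Adgre1 was lost in 1 or more of the 6 such fits. No marker of these lists that the tables hold was at 0 in every library. The part of these shifts in the B cell and plasma cell values was not tested.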

How the data were processed

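Per the labels' protocols, spleen cell RNA was extracted with TRIzol and its libraries came from a VAHTS Universal V6 kit. The authors deposited whole-number counts per gene, from HISAT2 alignment to mm10 and HTSeq counting per the submitters' processing notes. The sources used here do not name versions, annotation or strand handling, so reads of overlapping, antisense or near-identical genes (such as the Fc receptor-like family) may be misassigned. The deposited FPKM values equal count over gene length and library total, up to a constant (largest relative spread 8.88e-16). They were used to compare genes and in alternatives. All value columns matched a sample (0 left out).

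Groups came from the titles. The members and gene lists were chosen with earlier results of these data known. Named genes are all 36 members, up to 3 genes of smallest p per list and a fixed set. Counts were tested as deposited with edgeR 4.0.16 in R 4.3.3, each table alone, with filterByExpr, TMM scaling, the two-sided quasi-likelihood F test and Benjamini-Hochberg adjustment over all genes tested (threshold 0.05), without a replicate block. All 36 members passed the filter in both tables, so no member was left out. SE is the absolute log2 fold change over the square root of F. The biological coefficient of variation that edgeR estimated was 0.275 for the neutrophil and 0.114 for the monocyte table. Entrez IDs of 36 members matched RefSeq GRCm38.p6, the source of coordinates and promoters. Immunoglobulin and T cell receptor constant genes were not analysed here, and 1 further gene is not reported here. No pair of libraries agreed within counting noise (lowest chi-square per degree of freedom 16.9 and 12.6).

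On simulated data with 200 changed genes, the neutrophil test recovered 1.49%, 32.8% and 72.7% of 1.5-, 2- and 4-fold changes over 12907 genes, with 6 of 77 calls on unchanged genes. The monocyte test recovered 59.1%, 84.9% and 98.4% over 13160 genes, with 16 of 174. Alternatives were other scalings and filters, DESeq2 1.42.0, limma 3.58.1 on voom values or log2(FPKM + 1 or 0.1), a replicate block and leaving out each library.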

Additional observations from a re-analysis of the deposited data

How the results depend on the processing

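In monocytes the log2 fold changes of all 31 B cell members stayed negative in every alternative run, while counts of calls did not stay. Summed levels were recomputed only under other scalings, where they moved by less than 1 SD. In monocytes the B cell members that fell numbered 12 with upper quartile scaling, 13 without a filter and 20 in DESeq2. Over all genes, 1030, 726 (of 16954) and 1204 fell in those settings. On log2(FPKM + 1) and on log2(FPKM + 0.1), 5 members fell, against 561 and 585 genes. With limma-voom 7 members fell (653 genes), with library totals 8 (816 genes) and with DESeq2 size factors in edgeR 9 (737 genes). In neutrophils, DESeq2 called 456 genes up and 107 down, with 1 B cell and 1 plasma cell member up. Log2(FPKM + 1) gave 44 up and 1 down, 49 and 1 with a mean of at least 1 FPKM, and log2(FPKM + 0.1) gave 1 down. Leaving out 1 library gave 1 to 29 B cell members that fell in monocytes, 0 to 1 plasma cell members that fell, a plasma cell median of -0.54 to 0.12, and 177 to 1168 genes that fell and 706 to 1687 that rose. In neutrophils the ranges were 0 to 2 B cell members that fell, 0 to 1 that rose, 0 to 1 plasma cell members that rose, and 0 to 31 and 0 to 257 over all genes. Whether the replicate numbers pair the samples was not settled. Same-numbered deviations correlated at 0.248, 0.000146 and 0.234 in neutrophils and 0.167, -0.0558 and 0.222 in monocytes. Differently numbered libraries were not compared, so these values cannot decide it. With the replicate block, 25 B cell members and 1043 genes fell in monocytes, and 4 genes rose and 1 fell in neutrophils.

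Neutrophil log2 fold changes near 0 changed sign in some settings: with library totals Ly6d -0.00831, Cd3e -0.0377; with limma-voom Bank1 0.0462, Ralgps2 0.0361, Pax5 0.10, Spib 0.0203, Bach2 0.0890, Ccr6 0.0574, Tnfrsf17 0.00828; with log2(FPKM + 1), with or without the FPKM minimum, Pax5 0.0370, Bach2 0.0148, Cd3e -0.00422; with log2(FPKM + 0.1) Pax5 0.0393, Bach2 0.0300, Cd3e -0.00129. With the replicate block they were Bank1 0.0449, Ralgps2 0.0340, Pax5 0.0874, Spib 0.0158, Bach2 0.0780, Ccr6 0.0538. Tnfrsf17 in monocytes became -0.0174 with upper quartile scaling, -0.00189 with library totals, -0.0532 with limma-voom, -0.0480 and -0.0705 on the FPKM scales (pseudocounts 1 and 0.1) and -0.0333 with the replicate block. Ranges over the fits that leave out 1 library, where the sign changed, were in neutrophils Bach2 -0.32 to 0.19, Bank1 -0.34 to 0.19, Blk -0.0870 to 0.45, Ccr6 -0.31 to 0.24, Cd22 -0.10 to 0.45, Cd37 -0.12 to 0.41, Cd3e -0.16 to 0.21, Cd72 -0.0112 to 0.54, Cd79a -0.13 to 0.37, Cd79b -0.20 to 0.33, Fcmr -0.13 to 0.37, Fcrl1 -0.0918 to 0.37, Fcrla -0.20 to 0.39, Ly6d -0.24 to 0.29, Ms4a1 -0.0630 to 0.52, Mzb1 -0.10 to 0.41, Pax5 -0.34 to 0.24, Ralgps2 -0.37 to 0.17, Sdc1 -0.29 to 0.00427, Siglecg -0.11 to 0.41, Spib -0.38 to 0.17, Tnfrsf13b -0.16 to 0.38, Tnfrsf17 -0.41 to 0.20, Tnfsf13 -0.69 to 0.31, Tnfsf13b -0.0438 to 0.28, and in monocytes Jchain -0.68 to 0.24, Mzb1 -0.54 to 0.0699, Prdm1 -0.31 to 0.12, Sdc1 -0.83 to 0.44, Siglech -0.0324 to 0.19, Tnfrsf17 -0.66 to 0.52, Tnfsf13 -0.36 to 0.20, Xbp1 -0.0231 to 0.48. The cause was not tested. Depth mainly limits genes of low CPM, such as Tnfrsf17, Rag1, Cxcl13 and, among the members, Vpreb3.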
